A study of Mus musculus with 8 samples.

Results

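The genes described here carry glucose and glycogen through skeletal muscle: they code for glucose transporters, the enzymes of glycolysis, lactate dehydrogenase and the lactate transporters, the enzymes that build and break down glycogen, the enzymes that set the level of the fructose phosphates, and pyruvate dehydrogenase with its kinases. The list holds 40 genes, chosen as the entries of the expression table whose gene name equals a name on the list, out of 47643 genes in the table. All 40 were found once. Quadriceps muscle was measured by RNA sequencing in 4 mice labelled Nup210-/- and 4 mice labelled Nup210+/+, all labelled as strain C57BL/6 (the substrain in the study's methods is C57BL/6J), with 1 library per mouse. The Nup210-/- line was made by crossing mice with a floxed exon 2 of Nup210 to Hprt-Cre mice, so the deletion is constitutive and not limited to muscle fibers, and no treatment is given for either genotype. Age and sex of these mice are not given in the sources used here, and no litter, batch or date is given in the labels. Nup210 codes for a nucleoporin, a protein of the nuclear pore complex, and the comparison asks how muscle gene expression differs when it is missing.

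In muscle, glucose enters through the insulin-regulated transporter Slc2a4 (GLUT4), is trapped as glucose 6-phosphate by hexokinase, and is either stored as glycogen or split by glycolysis into pyruvate. Pyruvate is reduced to lactate, which leaves the fiber through monocarboxylate transporters, or enters mitochondria through pyruvate dehydrogenase, which pyruvate dehydrogenase kinases switch off. Many of these steps have a muscle form of the enzyme and a form that most other cells use, and fast fibers rely on glycolysis and glycogen more than slow fibers do.

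Expression is given as TPM, which sets the estimate for a gene relative to transcript length and to the total of the library. To compare genotypes, the TPM of each library were divided by a factor, the median ratio to the geometric mean over all libraries, which ranged from 0.936 to 1.12, and log2(scaled TPM + 1) was tested with limma across 14229 genes. The number of reads behind the TPM is unknown, so errors rest on the spread between libraries of a genotype. The SE from limma pools this spread over both genotypes and moderates it by its trend with level over all genes. Nup210 itself was not lower in the libraries labelled Nup210-/-. It was at 9.54, 10.8, 11.9 and 8.81 TPM in these and at 5.71, 10.1, 9.19 and 6.71 TPM in those labelled Nup210+/+, with overlap. Its estimate was on the higher side, with a log2 fold change of 0.44, an unadjusted p of 0.0146 and an adjusted p of 0.231 in limma. Every direction below therefore rests on the labels. A deletion of 1 exon can leave reads from the rest of the transcript, and the table does not separate exons.

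One library stood apart. Replicate 2 labelled Nup210+/+ had a summed level of 382 TPM over 6 granulocyte precursor genes, against 0.31 to 2.12 TPM in the other 7 libraries, and of 73.9 TPM over 10 proliferation genes, against at most 5.04 TPM. Over 12 leukocyte genes the summed level was 245 to 271 TPM in the libraries labelled Nup210-/- and 282 to 550 TPM in those labelled Nup210+/+. All 12 were detected, and 8 of the 12 were lower in the former at an unadjusted p of 0.05 in limma, against 7.18% of all genes tested. In whole muscle, fewer cells of a type and less RNA per cell cannot be told apart. The tissue label matched its markers: 10 fast fiber genes summed to 81290 to 94511 TPM and 9 slow fiber genes to 1205 to 2293 TPM.

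The 40 genes together took 3.20 to 3.51% of each library, with a summed level of 33059, 33155, 35089 and 34235 TPM in the libraries labelled Nup210-/- and of 32513, 32859, 33881 and 32013 TPM in those labelled Nup210+/+. These sums overlapped between genotypes. Aldoa, the muscle aldolase that splits fructose 1,6-bisphosphate, made up 28.9 to 32.6% of them. Eno3, the muscle enolase, followed with a mean of 4453 TPM, and Pygm, muscle glycogen phosphorylase, with 2789 TPM. Of the 40 genes, 27 had a mean of at least 100 TPM. Aldoc, the brain form of aldolase, was the only one under the minimum mean of 0.5 TPM set for the test, with values from 0 to 1.45 TPM, which left 39 genes tested.

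**Figure D1:**
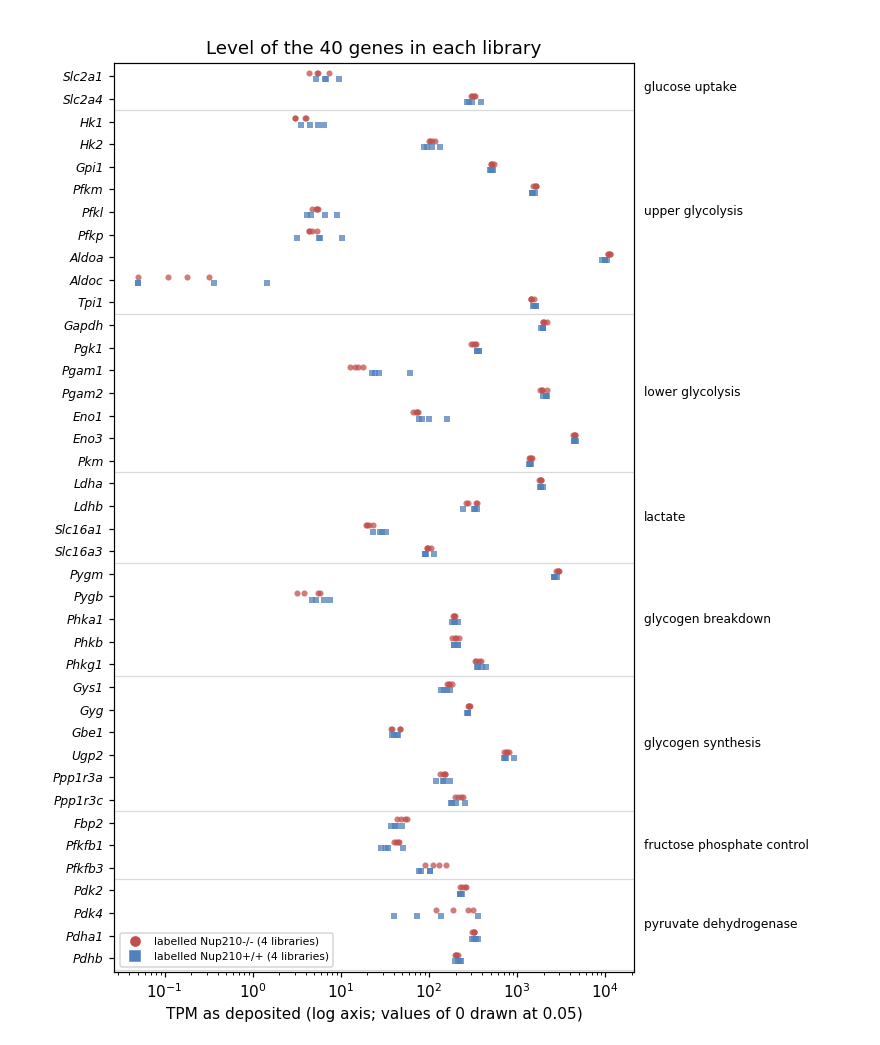
Level of each of the 40 genes in TPM as deposited (horizontal log axis), grouped by role, with 1 point per library: circles for the 4 libraries labelled Nup210-/- and squares for the 4 labelled Nup210+/+. Values of 0, which occur for Aldoc only, are drawn at 0.05. Levels run from Aldoc, at 0 to 1.45 TPM, to Aldoa, at 9245 to 11290 TPM, and for Pgam1 and Eno1 all squares lie to the right of the circles, farthest in replicate 2.

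No gene of the 39 reached an adjusted p under 0.05 in limma, and the lowest was 0.192, for Gys1. At this threshold 0.0492% of all genes tested were higher in the libraries labelled Nup210-/- and 0.0633% were lower. At an unadjusted p of 0.05, 10 of the 39 were higher, against 7% of all genes tested, and 2 were lower, against 7.18%. The 10 were Gpi1, Pfkm, Aldoa, Gapdh, Pygm, Gys1, Fbp2, Pfkfb1, Pfkfb3 and Pdk2, and the 2 were Pgam1 and Slc16a1. On scaled TPM, 7 genes were higher without overlap of the genotypes, against 4.78% of all genes, and 2 were lower without overlap, against 4.6%. The estimate was above 0 for 27 of the 39, against 48.7% of all genes, and the median log2 fold change was 0.08, against -0.01 over all genes.

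These counts moved with the level of the genes and with the scaling. Among the 904 tested genes with a mean of at least 100 TPM, a split chosen after the values were seen, 16.6% were higher and 4.2% lower at an unadjusted p of 0.05. Of the 27 genes of the list at that level, 8 were higher and 0 lower, with a median of 0.10, against 0.06 over the 904. Without overlap of the genotypes on scaled TPM, 6 of the 27 were higher, against 11% of the 904, and 0 lower, against 2.43%. The estimate was above 0 for 23 of the 27, against 70.6% of the 904. Of the 12 tested genes under 100 TPM, 2 were higher and 2 lower, with a median of -0.18. Over all genes tested, at any level, 7% were higher and 7.18% lower, with a median of -0.01. No share or median was taken over genes under 100 TPM alone, so these 12 lack a like comparison. On TPM as deposited, without scaling, 2 of the 39 were higher (Aldoa and Pfkfb3) and 5 lower (Pgam1, Slc16a1, Eno1, Hk1 and Pgk1), so that 28.6% of the calls were higher, against 83.3% with scaling. The median of the 39 was then -0.01 and that of all genes -0.08, and 2.35% of all genes were higher and 11.8% lower. Aldoa, Pfkfb3, Pgam1 and Slc16a1 were past an unadjusted p of 0.05 in the same direction under both.

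With each library left out in turn, Aldoa, Pygm, Gys1, Fbp2, Pfkfb1, Pgam1 and Slc16a1 passed an unadjusted p of 0.05 in limma in all 8 fits. Pfkm passed in 6 of the 8, Pfkfb3 in 4, Gapdh and Pdk2 in 3 each, and Gpi1 in 2. Slc2a4, Slc16a3 and Pdk4 (higher) and Pgk1 (lower) passed without replicate 3 labelled Nup210+/+. Eno1 (lower) passed without replicate 1, 2 or 4 labelled Nup210+/+, and Hk1 (lower) without replicate 1 labelled Nup210-/- or replicate 4 labelled Nup210+/+. Gyg and Ppp1r3c (higher) passed without replicate 3 labelled Nup210-/-, and also without replicate 4 and replicate 1 labelled Nup210+/+, respectively.

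**Figure D2:**
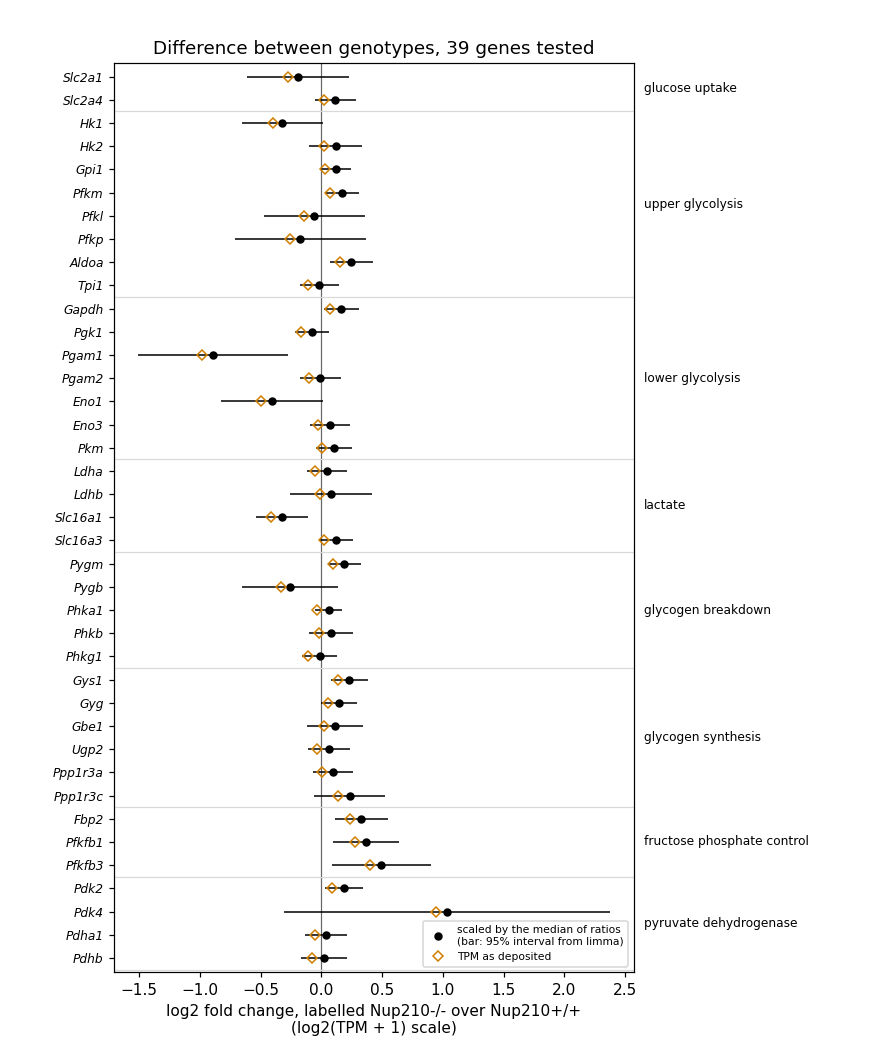
Log2 fold change of the libraries labelled Nup210-/- over those labelled Nup210+/+ for the 39 genes tested, by role. Filled circles are from scaled TPM with 95% intervals from limma, and open diamonds from TPM as deposited. Each diamond lies to the left of its circle; Pgam1 has the lowest estimate, at -0.89, and Pdk4 the highest, at 1.04, with an interval from -0.30 to 2.38 that spans 0.

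Of the glucose transporter genes on the list, Slc2a4 was by far the more abundant as RNA. Its level was 310, 326, 328 and 297 TPM in the libraries labelled Nup210-/- and 306, 287, 391 and 271 TPM in those labelled Nup210+/+. The genotypes overlapped, and replicate 3 labelled Nup210+/+ was the highest of the 8 libraries. Slc2a1 (GLUT1), the basal glucose transporter of most cells, was at 5.56, 7.42, 5.33 and 4.36 TPM against 6.59, 9.63, 5.29 and 6.83 TPM, also with overlap. Slc2a4 held 96.7 to 98.7% of the sum of both. With all libraries neither transporter passed an unadjusted p of 0.05, with log2 fold changes of 0.12 (SE 0.075) for Slc2a4 and -0.19 (SE 0.19) for Slc2a1. Single libraries moved both: without replicate 3 labelled Nup210+/+ the value of Slc2a4 was 0.19 with an unadjusted p of 0.0059 in limma, and without replicate 2 that of Slc2a1 was -0.05.

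Of the 8 upper glycolysis genes tested, 3 were higher at an unadjusted p of 0.05 in limma, against 7% of all genes tested. The same 3 were higher without overlap on scaled TPM, against 4.78%. All 3 had a mean above 100 TPM, where these shares of genes were 16.6% and 11%. Aldoa was at 10682, 10655, 11290 and 11167 TPM in the libraries labelled Nup210-/-. It was at 9953, 10439, 9799 and 9245 TPM in those labelled Nup210+/+. Aldoa was the only one of the 40 genes higher without overlap on TPM as deposited as well as on scaled TPM. It differed by a log2 fold change of 0.25 (SE 0.079), a 1.19-fold ratio of scaled means, with an adjusted p of 0.212 in limma. On TPM as deposited the log2 fold change was 0.15 with an exact permutation p of 0.0286, two-sided, which is the smallest p that 4 libraries against 4 allow. Any gene without overlap has this p, so it adds nothing to the lack of overlap, and it was not adjusted.

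Pfkm codes for muscle phosphofructokinase, the enzyme that commits fructose 6-phosphate to glycolysis. Its level was 1503, 1585, 1638.5 and 1614 TPM in the libraries labelled Nup210-/- and 1455, 1466, 1595 and 1502 TPM in those labelled Nup210+/+. The values overlapped as deposited and were separate after scaling, with a log2 fold change of 0.17 (SE 0.062) and an adjusted p of 0.267 in limma. Gpi1, glucose 6-phosphate isomerase, was at 507, 513, 553 and 507 TPM against 508, 528, 515 and 486 TPM. It too overlapped as deposited and was separate after scaling, by a log2 fold change of 0.12 (SE 0.055). On TPM as deposited its log2 fold change was 0.03, so its separation came with the scale factors.

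The remaining genes of upper glycolysis overlapped between genotypes on both scales. Hk1, the hexokinase of most tissues, had the lowest estimate of the group. It was at 3.99, 3.92, 3 and 3.05 TPM against 4.48, 6.38, 5.54 and 3.54 TPM, with a log2 fold change of -0.32 (SE 0.15) and an adjusted p of 0.365 in limma. Hk2, the insulin-responsive hexokinase of muscle, ranged from 87.9 to 132 TPM with a log2 fold change of 0.12, and Tpi1, triose phosphate isomerase, from 1416 to 1639 TPM with -0.02.

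The liver and platelet phosphofructokinases Pfkl and Pfkp are minor forms in muscle. Pfkp was at 5.39, 4.40, 4.33 and 4.75 TPM in the libraries labelled Nup210-/- and 5.82, 10.2, 5.71 and 3.20 TPM in those labelled Nup210+/+. Pfkl ranged from 4.75 to 5.57 TPM and from 4.18 to 9.14 TPM. For both genes the highest value was in replicate 2 labelled Nup210+/+, the library with granulocyte precursor genes. Without it the log2 fold change of Pfkl went from -0.06 to 0.13 and that of Pfkp from -0.17 to 0.06.

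In lower glycolysis, 1 gene of 7 was higher at an unadjusted p of 0.05 in limma, against 7% of all genes tested. Another 1 was lower, against 7.18%. Gapdh, glyceraldehyde 3-phosphate dehydrogenase, was at 2028, 1946, 2162 and 1967 TPM in the libraries labelled Nup210-/- and at 1959, 1945, 1942 and 1868 TPM in those labelled Nup210+/+. The values overlapped as deposited, in the narrow range of 1946 to 1959 TPM, and were separate after scaling. Gapdh differed by a log2 fold change of 0.16 (SE 0.064) with an adjusted p of 0.293 in limma. Gapdh has 87 similar genes in the annotation, with at least 95% identity over at least 200 bases. The 84 in the table summed to 225 to 267 TPM, so the split of reads between Gapdh and its copies is uncertain. With its copies Gapdh was at 2278 ± 104 TPM against 2164 ± 46.9 TPM as deposited (mean ± SD, n = 4 each).

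Pgam1 is the phosphoglycerate mutase of most tissues, on the plus strand at chr19:41911923-41918660 in GRCm38. Its level was 15.7, 18.0, 12.8 and 14.3 TPM in the libraries labelled Nup210-/-. In those labelled Nup210+/+ it was 24.1, 60.2, 27.4 and 22.3 TPM. The genotypes did not overlap on either scale, and replicate 2 labelled Nup210+/+ stood far above the others. The log2 fold change was -0.89 (SE 0.27) with an unadjusted p of 0.0097 and an adjusted p of 0.207 in limma, and it was -0.58 (SE 0.11) with an adjusted p of 0.1 without that library. Over 20 alternative settings the log2 fold change of Pgam1 ran from -1.004 to -0.58 and passed an unadjusted p of 0.05 in all 20. Pgam1 has 1 similar gene in the annotation, Pgam1-ps2. It was at 6.07 TPM in replicate 2 and 2.18 TPM in replicate 3 labelled Nup210+/+, and at 0 in the other libraries. With this copy Pgam1 was at 15.2 ± 2.20 TPM against 35.6 ± 20.7 TPM (mean ± SD). Leukocyte genes were also lower in the libraries labelled Nup210-/- (245 to 271 against 282 to 550 TPM summed); their part in the difference was not tested.

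Pgam2, the muscle phosphoglycerate mutase, was at 1833 to 2182 TPM against 1971 to 2196 TPM, with a log2 fold change of -0.01 (SE 0.076). Pgam1 was therefore a small part of the pair. Its share of the sum of both, which does not depend on the scaling between libraries, was 0.58 to 0.97% in the libraries labelled Nup210-/- and 1.03 to 2.96% in those labelled Nup210+/+, without overlap. The upper end was replicate 2, and the other 3 reached at most 1.23%.

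Eno1, the enolase of most tissues, was also lower in every library labelled Nup210-/-. It was at 65.0, 75.7, 73.6 and 71.3 TPM in the libraries labelled Nup210-/- and at 83.6, 159, 101 and 76.9 TPM in those labelled Nup210+/+. The genotypes did not overlap on either scale, with replicate 2 labelled Nup210+/+ again the highest. Eno1 had a log2 fold change of -0.40 (SE 0.19) with an unadjusted p of 0.059 in limma. Its exact permutation p of 0.0286, unadjusted, follows from the lack of overlap. Without replicate 2 labelled Nup210+/+ the log2 fold change was -0.18 (SE 0.067) with an adjusted p of 0.304 in limma. Eno1 has 3 similar genes in the annotation. They summed to 14.2 TPM in that library and to 2.50 to 4.48 TPM in the others. With these copies Eno1 was at 74.6 ± 4.02 TPM against 112 ± 42.6 TPM (mean ± SD). Eno3, the muscle enolase, was at 4395, 4262, 4532 and 4476 TPM against 4387, 4394, 4599 and 4576 TPM, with overlap and a log2 fold change of 0.07 (SE 0.074).

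Pgk1, phosphoglycerate kinase, depended on the scaling. It was at 312, 338, 331 and 297 TPM in the libraries labelled Nup210-/- and at 365, 369, 351 and 352 TPM in those labelled Nup210+/+. These values did not overlap as deposited (log2 fold change -0.17, exact permutation p 0.0286) and overlapped after scaling (log2 fold change -0.08, exact permutation p 0.257). Pgk1 has 4 similar genes in the annotation, of which 2 are in the table, and these summed to 249 to 351 TPM, near the level of Pgk1 itself. With these copies Pgk1 was at 598 ± 10.9 TPM against 679 ± 45.6 TPM as deposited (mean ± SD). This sum was not compared after scaling. Pkm, the pyruvate kinase of muscle, ranged from 1349 to 1473 TPM over all libraries, with a log2 fold change of 0.10 (SE 0.065).

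**Figure D3:**
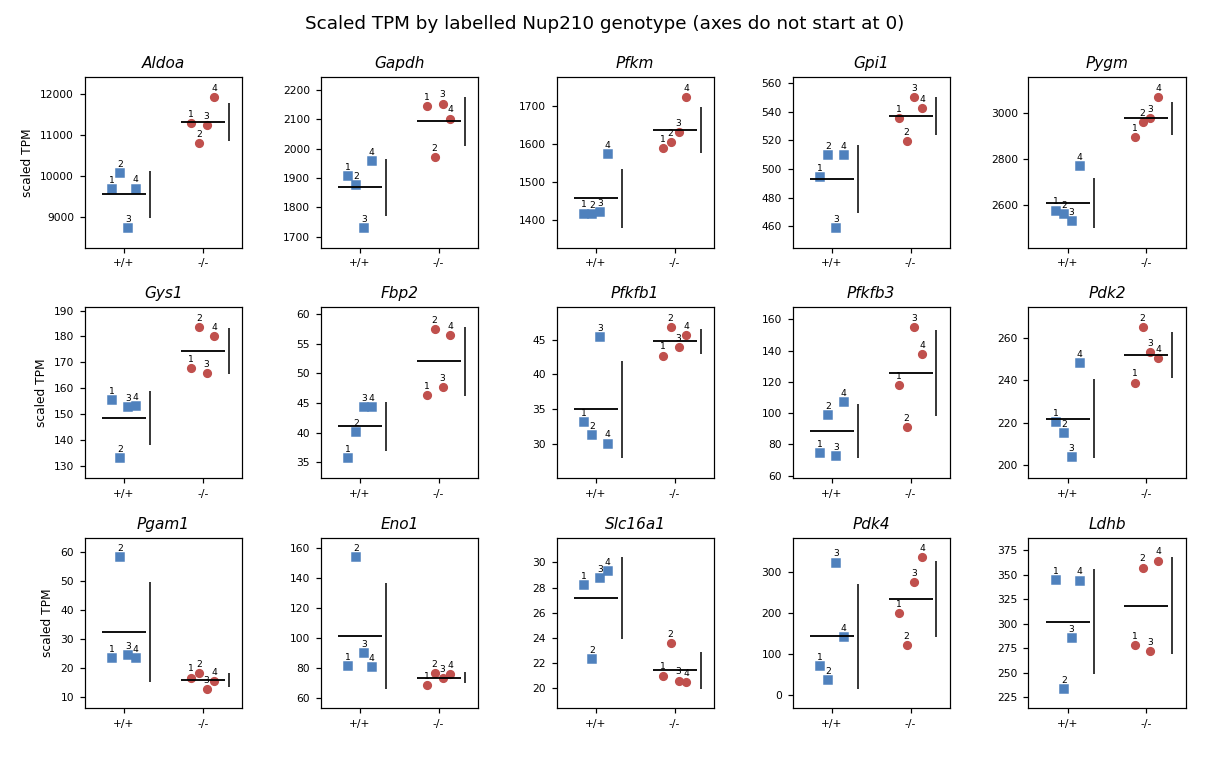
Scaled TPM of 15 genes by labelled genotype, squares for Nup210+/+ and circles for Nup210-/-, with the replicate number above each point, the mean as a horizontal bar and the SD as the line to its right (n = 4 each). Vertical axes do not start at 0. Aldoa, Gapdh, Pfkm, Gpi1, Pygm, Gys1 and Fbp2 are higher without overlap, Pgam1 and Eno1 lower without overlap, and replicate 2 labelled Nup210+/+ is the highest point for Pgam1 and Eno1 and the lowest of its genotype for Slc16a1, Pdk4 and Ldhb.

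At the exit of glycolysis, the estimates of the lactate transporters lay on opposite sides of 0. Slc16a1 (MCT1), which imports and exports lactate in oxidative fibers and many other cells, lies on the plus strand at chr3:104638668-104658462 in GRCm38. It was at 19.9, 23.2, 20.7 and 19.1 TPM in the libraries labelled Nup210-/- and at 29.0, 23.1, 32.3 and 27.96 TPM in those labelled Nup210+/+. The genotypes touched through 1 library: replicate 2 labelled Nup210+/+ lay within the range of the other genotype, and the other 3 lay above it. The log2 fold change was -0.32 (SE 0.095) with an unadjusted p of 0.0077 and an adjusted p of 0.197 in limma. Without replicate 2 it was -0.41 (SE 0.069) with an adjusted p of 0.0805, and over all 20 alternative settings it ran from -0.41 to -0.29 with an unadjusted p of at most 0.0281. Replicate 2 labelled Nup210+/+ was the lowest of its genotype for Slc16a1 and the highest for Pgam1 and Eno1. The part of leukocyte RNA in any of these differences was not tested.

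Slc16a3 (MCT4), the lactate exporter of glycolytic fibers, was at 95.6, 97.3, 105 and 94.2 TPM against 91.2, 90.4, 115 and 90.5 TPM. The genotypes overlapped because of replicate 3 labelled Nup210+/+, and the log2 fold change was 0.12 (SE 0.061) with an adjusted p of 0.407 in limma. The share of Slc16a3 in the sum of both transporters was 82.8, 80.7, 83.6 and 83.1% in the libraries labelled Nup210-/- and 75.9, 79.6, 78.0 and 76.4% in those labelled Nup210+/+. These shares do not depend on the scaling and did not overlap, whereas each transporter alone did. Among all the pairs and groups of related genes examined, only this pair and that of Pgam1 and Pgam2 were without overlap. No like share was taken over other gene pairs.

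Ldha, the lactate dehydrogenase subunit of fast muscle, did not separate the genotypes. It was at 1803, 1746, 1841 and 1858 TPM against 1803, 1975, 1859 and 1864 TPM, with a log2 fold change of 0.05 (SE 0.073). Ldhb, the subunit of heart and slow fibers, varied more between mice than between genotypes. It was at 263, 352, 274 and 341 TPM in the libraries labelled Nup210-/- and at 354, 242, 320 and 328 TPM in those labelled Nup210+/+, with a log2 fold change of 0.08 (SE 0.15).

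The level of Ldhb followed that of the slow myosin heavy chain Myh7 from mouse to mouse. Myh7 was at 60.7, 140, 61.6 and 128 TPM in the libraries labelled Nup210-/- and at 121, 62.8, 90.1 and 120.5 TPM in those labelled Nup210+/+. The 4 libraries highest in Myh7, replicates 2 and 4 labelled Nup210-/- and replicates 1 and 4 labelled Nup210+/+, were also the 4 highest in scaled Ldhb. Since the libraries fell into a higher and a lower cluster of 4 by Myh7, no correlation over all 8 is given. Neither gene passed an unadjusted p of 0.05 between genotypes.

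**Figure D4:**
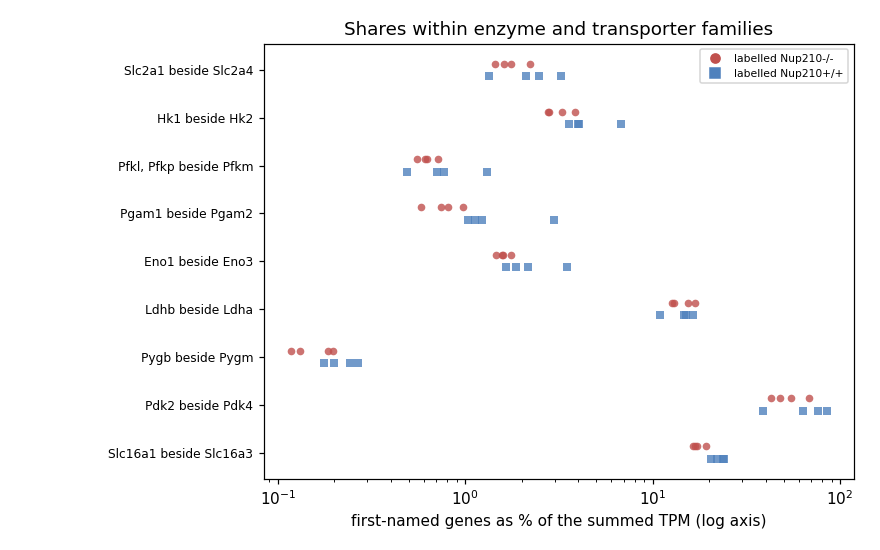
Share of the genes named first in the summed TPM of each pair or group of related genes, on a log axis in percent, with 1 point per library: circles for those labelled Nup210-/- and squares for those labelled Nup210+/+. Circles and squares do not overlap for Pgam1 beside Pgam2 and for Slc16a1 beside Slc16a3; in percentage points Pdk2 beside Pdk4 covers the widest range, from 38.8 to 84.9%.

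Among the glycogen breakdown genes on the list, Pygm, which releases glucose 1-phosphate from glycogen, had the highest RNA level. Pygm was at 2739, 2923, 2992 and 2873 TPM in the libraries labelled Nup210-/-. In those labelled Nup210+/+ it was at 2648, 2654, 2843.5 and 2644 TPM. Replicate 3 labelled Nup210+/+ made the deposited values overlap; after scaling the genotypes were separate. Pygm differed by a log2 fold change of 0.19 (SE 0.060), a 1.14-fold ratio of scaled means, with an adjusted p of 0.211 in limma. Pygb, the brain form, was at 3.21, 5.76, 5.57 and 3.78 TPM against 5.25, 4.68, 7.59 and 6.43 TPM, with overlap and a log2 fold change of -0.26 (SE 0.17). Pygm held 99.7 to 99.9% of the sum of both.

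Phosphorylase is switched on by phosphorylase kinase, whose subunits varied little. Phka1, the muscle alpha subunit, ranged from 181 to 216 TPM, Phkb, the beta subunit, from 183 to 219 TPM, and Phkg1, the muscle catalytic subunit, from 336 to 438 TPM over the 8 libraries. Their log2 fold changes were 0.06, 0.08 and -0.01, and none passed an unadjusted p of 0.05.

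All 6 glycogen synthesis genes had an estimate above 0 after scaling, against 48.7% of all genes tested and 70.6% of those with at least 100 TPM. Of the 6, 1 was higher at an unadjusted p of 0.05 in limma, against 7% of all genes tested. Without scaling, Ugp2 was at -0.04 and none of the 6 passed. Gys1, muscle glycogen synthase, was at 159, 181, 167 and 169 TPM in the libraries labelled Nup210-/- and at 160, 138, 171 and 146 TPM in those labelled Nup210+/+. The deposited values overlapped widely and the scaled values did not. The log2 fold change was 0.23 (SE 0.067) with an unadjusted p of 0.0071 and an adjusted p of 0.192 in limma, the lowest among the 39 genes. On TPM as deposited it was 0.14 (SE 0.076).

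Ppp1r3c, a glycogen-targeting subunit of protein phosphatase 1, had the largest estimate of the group with little more than the spread between mice. It was at 233, 216, 197 and 245 TPM against 254, 176, 202 and 181 TPM, with a log2 fold change of 0.23 (SE 0.13) and an adjusted p of 0.437 in limma. Ugp2, which makes UDP-glucose, was the most abundant of the group at 743, 812, 711 and 761 TPM against 729, 717, 915 and 752 TPM, with overlap and a log2 fold change of 0.06 (SE 0.076). Gyg, glycogenin, the protein primer of glycogen, ranged from 269 to 292 TPM, Gbe1, the branching enzyme, from 37.0 to 47.2 TPM, and Ppp1r3a, the muscle glycogen-targeting subunit, from 119 to 173 TPM. Of these Gyg was nearest to the threshold, with a log2 fold change of 0.15 (SE 0.067) and an adjusted p of 0.364 in limma.

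The enzymes that set the fructose phosphates were the only group in which every gene was higher at an unadjusted p of 0.05, 3 of 3, against 7% of all genes tested. Without scaling, Pfkfb3 alone passed, with an unadjusted p of 0.038 in limma, against 0.053 for Fbp2 and 0.105 for Pfkfb1. Fbp2, the muscle fructose bisphosphatase, turns fructose 1,6-bisphosphate back into fructose 6-phosphate. It was at 43.8, 56.7, 47.9 and 52.8 TPM in the libraries labelled Nup210-/- and at 36.7, 41.5, 49.7 and 42.3 TPM in those labelled Nup210+/+. After scaling the genotypes were separate, with a log2 fold change of 0.33 (SE 0.098) and an adjusted p of 0.2 in limma.

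Pfkfb1 and Pfkfb3 code for bifunctional enzymes that make and remove fructose 2,6-bisphosphate, the activator of phosphofructokinase. Pfkfb1 was at 40.4, 46.2, 44.1 and 42.7 TPM against 34.0, 32.4, 50.9 and 28.6 TPM. Replicate 3 labelled Nup210+/+ lay above all libraries of the other genotype as deposited, and the other 3 lay below them. The log2 fold change was 0.37 (SE 0.12) with an adjusted p of 0.22 in limma and of 0.0521 without replicate 3 labelled Nup210+/+, the lowest reached by any of the genes under any alternative. Pfkfb3, the most abundant of the group, was at 112, 89.9, 156 and 129 TPM against 76.8, 103, 81.7 and 102 TPM. The genotypes overlapped through replicate 2 labelled Nup210-/-, and the log2 fold change was 0.49 (SE 0.18), a 1.42-fold ratio of scaled means, with an adjusted p of 0.271 in limma.

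At the entry to the mitochondria, pyruvate dehydrogenase kinases switch off pyruvate dehydrogenase by phosphorylation. Pdk2 was at 226, 261, 254 and 234 TPM in the libraries labelled Nup210-/- and at 227, 223, 229 and 237 TPM in those labelled Nup210+/+. The ranges overlapped on both scales, with a log2 fold change of 0.18 (SE 0.069) and an adjusted p of 0.278 in limma. Pdha1 and Pdhb, the subunits of the dehydrogenase itself, did not separate the genotypes. Pdha1, the more abundant of the enzyme genes, was at 311, 327, 322 and 324 TPM against 327, 305, 345 and 357 TPM, with a log2 fold change of 0.04 (SE 0.077), and Pdhb ranged from 196 to 231 TPM with 0.02 (SE 0.084).

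Pdk4, the kinase induced by fasting and fatty acids, had the largest estimate and the largest spread. It was at 188.5, 120.0, 277 and 313 TPM in the libraries labelled Nup210-/- and at 72.2, 39.6, 361 and 135 TPM in those labelled Nup210+/+. The highest and the lowest of the 8 libraries were both labelled Nup210+/+. The log2 fold change was 1.04 (SE 0.59) with an adjusted p of 0.451 in limma, and single libraries labelled Nup210+/+ decided its size. It was 0.56 without replicate 2, the lowest library, and 1.57 without replicate 3, the highest, with an unadjusted p of 0.0098 and an adjusted p of 0.247. Pdk4 passed an unadjusted p of 0.05 in 3 of the 20 alternative settings: without replicate 3, with library weights and with the replicate number as a block.

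Pdk4 varied with Ucp3, a mitochondrial carrier also induced by fasting. Ucp3 was at 74.1, 40.1, 91.3 and 104 TPM against 29.5, 30.8, 140 and 43.7 TPM. The 4 libraries highest in Ucp3 were replicates 1, 3 and 4 labelled Nup210-/- and replicate 3 labelled Nup210+/+, at 74.1 to 140 TPM. They were also the 4 highest in Pdk4. The other libraries lay at 29.5 to 43.7 TPM of Ucp3. Since the libraries fell into a higher and a lower cluster by Ucp3 as well, no correlation over all 8 is given. Feeding state at collection is not given in the sources used here.

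Of the other relations examined, Pfkp and the leukocyte gene Ptprc had Pearson's r of 0.79 over the log2 scaled levels of the 8 libraries (exact permutation p 0.046, adjusted 0.0613 over 4 relations). Their Spearman's rho was 0.45 (exact permutation p 0.267, adjusted 0.357). Without replicate 3 labelled Nup210-/- and replicate 2 labelled Nup210+/+, r was 0.04, so the relation rests on these libraries. Slc2a1 and the endothelial gene Cdh5 had r of -0.06 and rho of -0.12, with exact permutation p of 0.883 and 0.793, the same after adjustment, and r of 0.19 without replicates 2 and 4 labelled Nup210+/+.

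**Figure D5:**
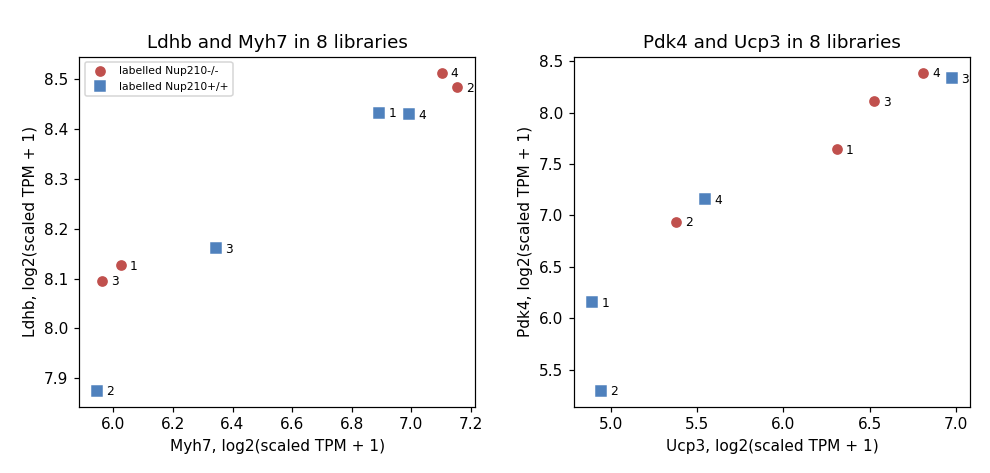
Log2(scaled TPM + 1) of Ldhb against Myh7 (left) and of Pdk4 against Ucp3 (right) in the 8 libraries, circles for those labelled Nup210-/- and squares for those labelled Nup210+/+, with replicate numbers. In the left panel 4 libraries are high and 4 low in both genes, 2 of each genotype on either side; in the right panel replicate 2 labelled Nup210+/+ is the lowest and replicate 4 labelled Nup210-/- and replicate 3 labelled Nup210+/+ the highest in Pdk4.

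The promoters of the genes were compared with a set of all RefSeq promoters on GRCm38.p6, each 250 bases before to 50 bases after a transcript start. A window was found for 39 of the 40 genes, and 11 had more than 1. A gene was counted if any of its windows held a match. The number of windows per gene was not compared between the list and all genes. The site bound by MEF2 factors, which drive many muscle genes, was found on either strand in 3 of the 39, Pgam2, Ppp1r3a and Pfkfb1, against 2.16% of 27025 genes. ACGTG, the usual core of hypoxia response elements, was found on either strand in 22 of the 39, or 56.4%, against 21.8% of all genes and 29% of the 9863 genes that were tested here and have a window. CACGTG, which contains ACGTG, was found in 8 of the 39, against 8.09% and 11.8%. Of the 10 genes higher at an unadjusted p of 0.05, Pfkfb1 alone held a MEF2 site. The 3 windows with a MEF2 site are shown 5′ to 3′ on the strand of the gene, with the site in capitals, at chr11:5803747-5804046 (minus strand), chr6:14755225-14755524 (minus strand) and chrX:150589666-150589965 (plus strand), since the activity of Mef2C, a MEF2 factor, is among what the study examined. The site begins 80 bases before the start in Pgam2, 100 bases in Ppp1r3a, where it reads as a site on both strands, and 113 bases in Pfkfb1. A match of letters does not show binding.
Pgam2: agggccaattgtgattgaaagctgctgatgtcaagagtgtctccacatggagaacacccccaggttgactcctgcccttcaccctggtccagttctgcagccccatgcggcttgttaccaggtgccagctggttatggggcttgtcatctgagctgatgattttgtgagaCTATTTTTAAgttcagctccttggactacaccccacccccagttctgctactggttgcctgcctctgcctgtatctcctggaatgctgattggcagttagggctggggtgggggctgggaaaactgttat
Ppp1r3a: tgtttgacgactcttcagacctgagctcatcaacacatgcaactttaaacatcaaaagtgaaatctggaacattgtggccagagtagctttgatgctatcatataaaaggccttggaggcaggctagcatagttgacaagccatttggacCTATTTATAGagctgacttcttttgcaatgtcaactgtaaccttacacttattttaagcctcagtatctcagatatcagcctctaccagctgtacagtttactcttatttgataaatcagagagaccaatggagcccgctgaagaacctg
Pfkfb1: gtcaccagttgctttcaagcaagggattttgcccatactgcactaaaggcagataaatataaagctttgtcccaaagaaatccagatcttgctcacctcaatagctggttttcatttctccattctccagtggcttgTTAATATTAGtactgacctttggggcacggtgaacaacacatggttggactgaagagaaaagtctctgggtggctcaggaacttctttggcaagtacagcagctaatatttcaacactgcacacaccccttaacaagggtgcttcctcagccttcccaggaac

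The log2 fold changes of these 3 genes between genotypes were -0.01 for Pgam2, 0.10 for Ppp1r3a and 0.37 for Pfkfb1.

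A wider list of 68 genes of the same pathways held other enzyme forms, glycogen regulators, the pyruvate carrier and the enzymes that branch off glycolysis. Of 63 tested, none passed an adjusted p of 0.05 in limma. At an unadjusted p of 0.05, 8 were higher, against 7% of all genes, and 5 lower, against 7.18%, with a median log2 fold change of 0.04. Among the 8 were the lysosomal glycogen glucosidase Gaa (0.21), the phosphatase catalytic subunit Ppp1cc (0.15), the pyruvate dehydrogenase phosphatase Pdp1 (0.38), the lactate transporter chaperone Bsg (0.15), the Rab regulator of GLUT4 traffic Tbc1d4 (0.46), the AMP kinase subunit Prkaa2 (0.13) and pyruvate carboxylase Pcx (0.36). The 5 were the liver phosphorylase Pygl (-0.66), the glycogen-targeting subunit Ppp1r3b (-0.36), the monocarboxylate transporter Slc16a7 (-0.34), the pentose phosphate enzyme G6pdx (-0.58) and the muscle AMP kinase subunit Prkag3 (-0.26). Pdp1, which reverses the action of the kinases, and Pdk2 were both on the higher side.

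Fiber genes were counted in the same fit. Of 10 fast fiber genes, 3 were higher at an unadjusted p of 0.05 (Myh4, Myh1 and Atp2a1) and 0 lower, with a median log2 fold change of 0.18. All 10 had a mean above 100 TPM, where 16.6% of genes were higher and 4.2% lower and the median was 0.06. Of 9 slow fiber genes, none passed in either direction, and the median was -0.17. Whether the differences in the muscle enzymes go with those of the fast fiber genes was not tested. Of 8 endothelial genes, 2 were higher at that threshold, against 7% of all genes tested, and 1 lower, against 7.18%. Of 6 adipocyte genes none passed.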

How the data were processed

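Quadriceps RNA from 4 mice labelled Nup210-/- and 4 labelled Nup210+/+ was sequenced from polyadenylated, directional, single-end libraries. The authors trimmed reads with cutadapt 2.3, aligned them to mm10 with STAR 2.7.0d, estimated expression with RSEM 1.3.1 and deposited 1 table of TPM per gene and library, in which each library sums to 1000000 within rounding; the strand setting of RSEM is not given in the sources used here. Being relative to the library total and to transcript length, TPM fall for other genes where 1 gene takes more, and the table gives no read depth.

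Values were scaled by the median of ratios over the 15225 genes above 0 in all libraries. Genes with a mean TPM under 0.5 were left out, and the other 14229 were tested as log2(scaled TPM + 1) with limma 3.58.1 in R 4.3.3 (eBayes with trend), genotype as the only term, with Benjamini-Hochberg adjustment over all genes tested. Fold changes are on this log2 scale, which understates low genes. Single genes were compared by two-sided exact permutation over 70 labelings (scipy 1.17.1). The limma test was also run on simulated normal values drawn independently for each gene and library. These hold no outlying library and no error of scaling, and no result here rests on them. The study compared estimated counts, which were not used here.

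All 40 genes may be named. Values in every library were given for genes at an unadjusted p of 0.05 or without overlap on scaled TPM, for the most abundant gene and the largest change in each direction per role, and for genes in correlations; Pgk1 was added after its values were seen. Of other pathway genes, those at an unadjusted p of 0.05 were named, except 1 that is not reported here. The genes, lists and relations were chosen with earlier results of these data known. Marker lists were fast fiber, slow fiber, leukocyte, granulocyte precursor, red cell, adipocyte, endothelium, Schwann cell and proliferation genes. Of the 5 red cell and 5 tested Schwann cell genes none passed an unadjusted p of 0.05 in limma, nor did any of the 6 granulocyte precursor genes. Of the 9 tested proliferation genes 1 was lower, against 7.18% of all genes tested.

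Coordinates and copies are from GENCODE M21 on GRCm38, matched by identifier for all 40 genes; similar genes were found with blastn 2.17.0. Exons of 13 of the 40 overlap a gene on the other strand, and of 2, Pfkm and Pkm, a gene on the same strand, so reads there may be shared. Promoters are from RefSeq (GRCm38.p6). The labels do not say that equal replicate numbers share an animal or day. The p-values for genotype set a difference against the spread between mice, which limma moderates by its trend over all genes.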

Additional observations from a re-analysis of the deposited data

Results flagged for a closer look

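In groups of 4 libraries, 8 of 106 sets of values had 1 library far from the other 3 (its gap over 0.829 of the range). For normal values chance gives about 5.3, or 1 in 20. Among the libraries labelled Nup210+/+, replicate 2 was the highest for Pgam1 at 60.2 TPM, against 22.3 to 27.4 TPM. It was the lowest for the share of Hk2 in both hexokinases at 93.2%, against 96.0 to 96.4%, and for the share of Pgam2 in both mutases at 97.04%, against 98.8 to 99.0%. These 3 are in the library with granulocyte precursor and proliferation genes. The sets are not independent, since the shares reuse levels that were also examined alone, as for Pgam1. Replicate 3 labelled Nup210+/+ was the highest for Slc16a3 at 115 TPM, against 90.4 to 91.2 TPM, for Pygm at 2843.5 TPM, against 2644 to 2654 TPM, and for Ucp3 at 140 TPM, against 29.5 to 43.7 TPM. Its scale factor, 1.12, was the largest of the 8. Replicate 3 labelled Nup210-/- was the highest for Gpi1 at 553 TPM, against 507 to 513 TPM, and for Tpi1 at 1568 TPM, against 1416 to 1440.5 TPM.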

How the results depend on the processing

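The 20 alternatives were 12 with all 8 libraries and 8 that left out 1 library each. In none did a gene of the list reach an adjusted p under 0.05 in limma, and the lowest was 0.0521. Of 468 log2 fold changes of the listed genes with all libraries, 15 changed sign, and of 312 with a library left out, 15 did; these came from 13 genes with a log2 fold change of at most 0.17 in size. On TPM as deposited, 2 were higher and 5 lower at an unadjusted p of 0.05, the median was -0.014, and the sign turned for Eno3 (-0.024), Ldha (-0.049), Ldhb (-0.014), Phka1 (-0.035), Phkb (-0.015), Ugp2 (-0.035), Pdha1 (-0.055) and Pdhb (-0.073). With upper-quartile scaling it turned for Tpi1 (0.011), Pgam2 (0.019) and Phkg1 (0.014). With library weights it turned for Pfkl (0.065), Ldhb (-0.025) and Pdhb (-0.027), and with the total without mitochondrial and top 20 genes for Pdhb (-0.014). With 1 library left out, values ran from -0.16 to 0.13 for Pfkl, -0.38 to 0.064 for Pfkp, -0.043 to 0.040 for Tpi1, -0.041 to 0.037 for Pgam2, -0.035 to 0.15 for Ldhb, -0.042 to 0.019 for Phkg1, -0.0022 to 0.11 for Pdha1 and -0.023 to 0.075 for Pdhb. Genes of the list at an unadjusted p of 0.05 then numbered 6 to 11 higher, with 6 without replicate 4 labelled Nup210-/- and 6 without replicate 1 labelled Nup210+/+, and 2 to 4 lower, with 4 without replicate 4 labelled Nup210+/+. Over the 14229 genes, 7 higher and 9 lower at an adjusted p of 0.05 became 11 higher and 11 lower with a pseudocount of 0.1, 14 and 13 with a minimum of 1 TPM, 2 and 12 on TPM as deposited, 2 and 8 without the mitochondrial and top 20 genes, and 43 and 41 with library weights. They became 0 higher and 1 lower with any TPM above 0, and 0 and 0 with a minimum of 0.1 TPM, upper-quartile scaling and eBayes without trend. With 1 library left out they were 0 to 2 higher and 0 to 8 lower. At an unadjusted p of 0.05, 1575 to 2681 genes passed in limma under these settings. The replicate block gave 0 and 0 over all genes, and 12 higher and 4 lower genes of the list at an unadjusted p of 0.05; libraries with equal numbers did not deviate together (r from -0.03 to 0.09), so the numbers were not taken as pairs. The correlation of Pfkp with Ptprc ran from 0.19 to 0.89 with 1 library left out, the lowest without replicate 2 labelled Nup210+/+, and was 0.041 without 2 libraries. That of Slc2a1 with Cdh5 ran from -0.29 to 0.44 and was 0.19 without 2 libraries. The cause of these shifts was not tested, and the unknown read depth leaves the counting error of low genes unknown.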
